A study of Homo sapiens with 3 samples.

Results

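YTHDC1 occupancy was examined at the 718 intergenic peaks that lie on chromosome arms, out of 6368 peaks called in all (11.3%, 95% Wilson interval 10.5 to 12.1). A peak was counted here if its midpoint lay outside every annotated gene body, over 1000 bases from every transcript start and end, and over 5 Mb from any unsequenced gap (a run of N of 1 Mb or more, mostly at centromeres) in the hg19 assembly. The study mapped YTHDC1 on chromatin by ChIP-seq in A549, an established human lung adenocarcinoma line, in 3 samples of a single group without knockdown or treatment. The authors pooled the reads of the 3 samples before calling broad peaks, so each peak has 1 value, no spread between samples can be given, and how deeply each sample was sequenced is unknown. The sources used here name no control library, and signal that such a library would also show cannot be told apart from YTHDC1 occupancy. Comparisons between sets of peaks are therefore descriptions of 1 pooled peak set with no test, and intervals cover counting error only.

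YTHDC1 is the nuclear reader of N6-methyladenosine (m6A), a mark on RNA, and is also found on chromatin, where RNA is made. Sequence between genes holds enhancers, which are often transcribed and in epithelial cells are commonly opened by AP-1 (dimers of FOS and JUN proteins) and TEAD factors, sites of the architectural protein CTCF, CpG islands at promoters that no annotation lists, and genes of RNA polymerase III such as those of tRNAs, which carry their promoter, the A and B boxes, inside the gene. These classes can be told apart in part by their letters, and a match to such letters is a description and not a bound site.

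The sequences that stand for these classes are shown first, as read from hg19 on the plus strand unless stated otherwise. The 2 peaks with the highest values among those with the AP-1 letters TGANTCA in their central 200 bases lay 24218 bases from the start of ADORA2B, an adenosine receptor gene, and 117471 bases from the start of ANKRD55, the nearest protein-coding gene of the second. Capitals mark the AP-1 letters, which stood once in the first and at 2 places in the second.
ADORA2B peak, chr17:15824126-15824325: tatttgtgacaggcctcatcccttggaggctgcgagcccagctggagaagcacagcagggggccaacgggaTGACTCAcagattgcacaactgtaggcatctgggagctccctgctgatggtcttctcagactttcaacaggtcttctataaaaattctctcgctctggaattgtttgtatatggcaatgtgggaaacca
ANKRD55 peak, chr5:55646528-55646727: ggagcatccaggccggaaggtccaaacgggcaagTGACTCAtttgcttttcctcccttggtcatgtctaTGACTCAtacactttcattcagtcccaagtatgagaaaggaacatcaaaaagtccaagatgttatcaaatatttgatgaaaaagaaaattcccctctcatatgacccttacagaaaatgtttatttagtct
The 2 highest peaks with a CTCF core lay near ZNF792, a zinc finger gene, and near REEP2 and the immediate early gene EGR1, and capitals mark the core.
ZNF792 peak, chr19:35464172-35464371: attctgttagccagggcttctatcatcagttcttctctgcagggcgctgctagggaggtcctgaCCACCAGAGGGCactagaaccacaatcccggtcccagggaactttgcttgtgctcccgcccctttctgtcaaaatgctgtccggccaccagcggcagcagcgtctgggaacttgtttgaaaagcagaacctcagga
REEP2 and EGR1 peak, chr5:137785697-137785896: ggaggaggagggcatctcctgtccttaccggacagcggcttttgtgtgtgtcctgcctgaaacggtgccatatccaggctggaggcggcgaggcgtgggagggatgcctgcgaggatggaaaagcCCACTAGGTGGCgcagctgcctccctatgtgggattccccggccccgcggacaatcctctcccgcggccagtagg
The 2 highest CpG-island-like peaks had GADD45B, a stress response gene, and C7orf25 as their nearest protein-coding genes, and capitals mark each CpG dinucleotide, of which the windows held 15 and 10.
GADD45B peak, chr19:2494461-2494660: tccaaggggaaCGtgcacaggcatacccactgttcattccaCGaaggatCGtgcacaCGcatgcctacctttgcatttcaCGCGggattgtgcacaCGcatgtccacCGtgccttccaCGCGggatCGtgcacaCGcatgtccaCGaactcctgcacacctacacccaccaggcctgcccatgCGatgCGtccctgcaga
C7orf25 peak, chr7:42896821-42897020: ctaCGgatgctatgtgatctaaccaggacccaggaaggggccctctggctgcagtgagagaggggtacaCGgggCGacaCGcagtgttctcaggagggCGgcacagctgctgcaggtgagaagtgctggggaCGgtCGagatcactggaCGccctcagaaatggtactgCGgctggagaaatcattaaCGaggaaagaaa
The centre of the peak with the highest value of all 718, near LINC00854, also held 10 CpG dinucleotides, in capitals, at a GC content of 48.0%.
LINC00854 peak, chr17:41400392-41400591: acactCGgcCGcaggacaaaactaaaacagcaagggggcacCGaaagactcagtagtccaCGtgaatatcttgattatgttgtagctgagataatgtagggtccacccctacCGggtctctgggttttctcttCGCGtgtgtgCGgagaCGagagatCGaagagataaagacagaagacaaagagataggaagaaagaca
In 3 peaks the tRNA B box letters GTTCGANTC are shown in capitals on the minus strand with the 75 bases before them. A tRNA gene would carry its first bases and A box in that stretch. Most of the PLLP stretch lies beyond the end of its peak at 57334415, and only the part with the B box is inside.
PLLP peak, chr16:57334388-57334487: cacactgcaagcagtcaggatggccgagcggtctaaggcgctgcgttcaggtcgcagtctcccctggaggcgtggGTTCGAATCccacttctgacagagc
PER1 peak, chr17:8042766-8042865: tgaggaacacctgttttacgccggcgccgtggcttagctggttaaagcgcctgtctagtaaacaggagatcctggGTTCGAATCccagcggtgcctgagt
DDIT4 peak, chr10:74057481-74057580: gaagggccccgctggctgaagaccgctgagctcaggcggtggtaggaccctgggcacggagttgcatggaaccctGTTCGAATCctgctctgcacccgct

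The rule was applied in steps. Of the 6368 peaks, 1576 had their midpoint outside every gene body, and 723 of these lay within 1000 bases of a transcript start or end. Of the 853 that remained, 135 lay within 5 Mb of a long gap. All 718 intergenic peaks lay wholly outside gene bodies. The rule fixes this, since the widest peak was 1793 bases and midpoints lay over 1000 bases from any transcript start or end. The bases that the rule admits came to 928.7 Mb, or 32.5% of the assembled genome, so intergenic peaks occurred at 0.773 per admitted Mb, against 0.697 intronic peaks per Mb of intron (985 peaks away from starts) and 2.23 peaks per Mb over the whole assembly. The intronic set, unlike the intergenic one, keeps sequence within 5 Mb of long gaps. All comparisons of these 2 sets below carry that difference. The peaks nearest to the limit of 1000 bases had values of the same order on both sides: 3 just inside it, near CPLX2, SIK1 and CASP16P, had a −log10 q of 1.19, 1.86 and 3.33, and 3 just outside had 1.05 (near a lncRNA gene on chromosome 4), 1.17 (SUZ12) and 2.00 (SLC7A2). Around the limit of 5 Mb, the 3 inside, near NORAD, PDCD5 and a lncRNA gene on chromosome 17, had 0.827, 1.79 and 1.69, and the 3 outside had 0.890, 4.03 and 1.82.

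Most intergenic peaks were weak and narrow. The value of a peak is read as −log10 of its q-value, as written by the peak caller. Its median was 1.28 over the intergenic peaks (quartiles 0.962 and 1.84, range 0.618 to 40.8), against 1.22 over intronic peaks, 2.32 over the 135 intergenic peaks within 5 Mb of long gaps and 1.33 over all peaks. A q-value under 0.05 was reached by 351 intergenic peaks (48.9%, 95% interval 45.2 to 52.5), against 44.5% of intronic peaks, 74.8% of those near long gaps and 52.1% of all peaks. The share among intergenic peaks is thus close to the background of the whole set and is no result about them. A −log10 q over 5 was found in 19 intergenic peaks and over 10 in 4. The median width was 321 bases, against 315 for intronic peaks, 389 near long gaps and 348 for all peaks, and 23 intergenic peaks (3.20%) were 800 bases or wider, against 5.03% of all. Width and value were only loosely related, with a Spearman rho of 0.17 over the 718 peaks, as the plot of width against −log10 q shows.

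**Figure D1:**
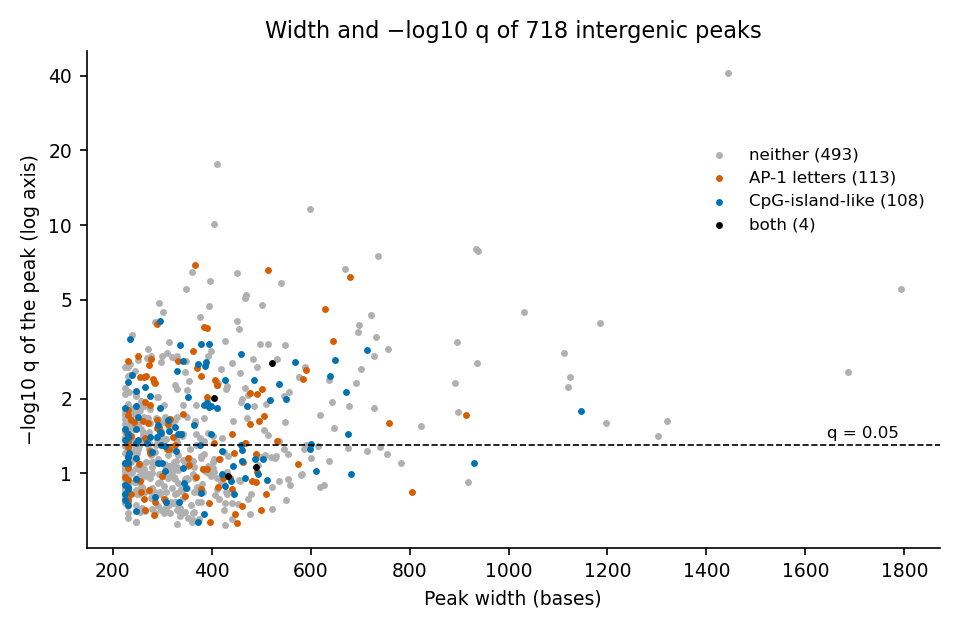
Width in bases (horizontal axis) and −log10 q on a log axis (vertical axis) of the 718 intergenic peaks, 1 point per peak, coloured by whether the central 200 bases held AP-1 letters, were CpG-island-like, both or neither. The dashed line marks a q-value of 0.05, which 351 peaks passed, and 1 peak stands apart at 40.8.

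The strongest peak lay on chromosome 17 (41399771 to 41401213, 1443 bases wide), 17154 bases from the nearest start, that of the lncRNA gene LINC00854, and its −log10 q of 40.8 was far above the second value of 17.7. Its nearest protein-coding start was that of TMEM106A, and a start of BRCA1, the homologous recombination gene, lay 78230 bases away. A second intergenic peak stood beside it (41393241 to 41393973, −log10 q 3.53). The second strongest lay on chromosome 16 (57334004 to 57334415), 15626 bases from PLLP, which encodes the membrane protein plasmolipin, and held a B box. The third, on chromosome 7 (25902359 to 25902957, 11.6), had no protein-coding start closer than 289160 bases, that of NFE2L3, a relative of NRF2. The fourth lay on chromosome 1 (204475735 to 204476139, 10.1), 9570 bases from MDM4, which encodes an inhibitor of p53, and its central 200 bases held no p53 half-site.

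The next 6 by value ranged down to 6.58. They lay near RNU7-92P and SULF2, a heparan sulfate sulfatase gene (chromosome 20, 46523491 to 46524425, 8.01), near TACR1, the substance P receptor gene (chromosome 2, 75427300 to 75428237, 7.84), and near PER1, a circadian clock gene (chromosome 17, 8042331 to 8043066, 7.49). The other three were the ADORA2B peak (chromosome 17, 15824043 to 15824409, 6.92), a peak near RPL36P14 with ACTL7B as its nearest protein-coding gene (chromosome 9, 111342272 to 111342940, 6.67), and the ANKRD55 peak (chromosome 5, 55646371 to 55646885, 6.58). These 10 peaks thus fell beside genes of many kinds, and 6 of them lay within 50 kb of a protein-coding start.

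The widest intergenic peaks were mostly not the strongest. The widest, 1793 bases on chromosome 4 (68264331 to 68266123), had a −log10 q of 5.52 and lay 95692 bases from CENPC, which encodes a centromere protein. The next, 1685 bases on chromosome 9 (21590028 to 21591712), had 2.57 and lay 30980 bases from MIR31HG, the host gene of a microRNA. The LINC00854 peak was the third widest. The other 7 were between 1120 and 1320 bases wide and had values between 1.42 and 4.03. Their nearest genes were MIR924HG (1320 bases), SBK2, a kinase gene (1302), PTMA, the prothymosin gene (1196), PAX5, a B cell factor gene (1185), and a lncRNA gene with PRKX as the nearest protein-coding gene (1146). CYP24A1, which encodes the enzyme that breaks down vitamin D (1124), and RNU1-27P with EAPP (1120) completed them.

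Intergenic peaks gathered towards starts even beyond the 1000 bases that the rule leaves out. Within 1 to 5 kb of the nearest start of any gene there were 158 peaks, or 1.45 per admitted Mb (95% exact Poisson interval 1.24 to 1.70). The density was 1.24 per Mb at 5 to 20 kb (352 peaks, interval 1.11 to 1.37), 0.469 at 20 to 100 kb (195 peaks, 0.405 to 0.539) and 0.109 at 100 to 500 kb (13 peaks, 0.0582 to 0.187). The first 2 intervals overlap, and each of the next 2 lies below the one before it. Beyond 500 kb there was 0 of 718 in only 0.216 Mb of admitted bases, a stretch too short to say anything. Against protein-coding starts alone, the density was 1.97 per Mb at 1 to 5 kb (72 peaks), 1.76 at 5 to 20 kb (222), 1.03 at 20 to 100 kb (287), 0.371 at 100 to 500 kb (118) and 0.112 beyond that (19). The median −log10 q did not follow this order. It was 1.26, 1.26, 1.29 and 1.32 in the 4 distance classes from near to far, counted over starts of any gene.

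**Figure D2:**
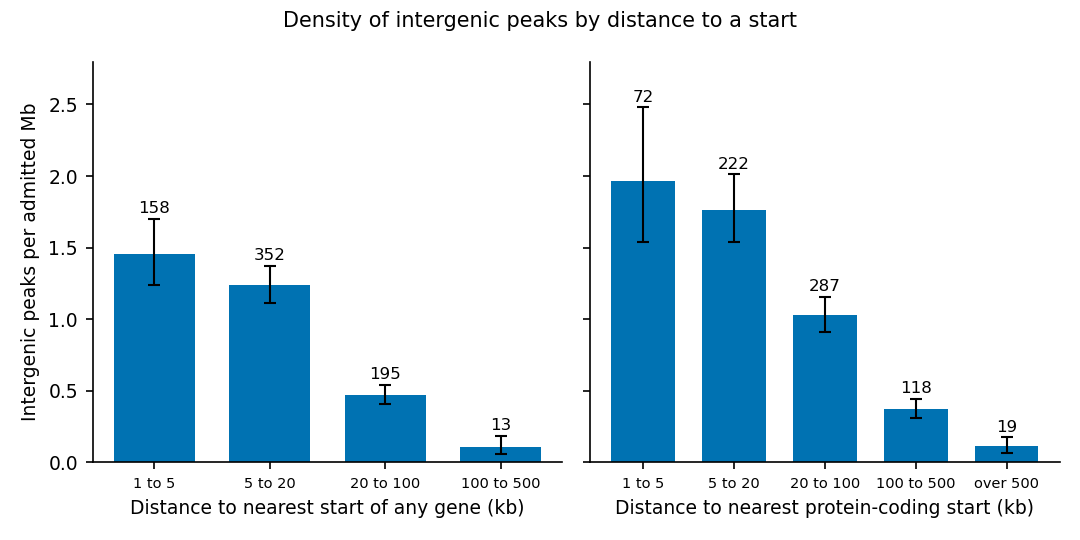
Intergenic peaks per Mb of admitted bases (vertical axis) by distance in kb to the nearest start of any gene (left) or of a protein-coding gene (right). Error bars are 95% exact Poisson intervals, numbers above bars are counts of peaks, and the density falls with distance in both panels, from 1.45 to 0.109 per Mb on the left and from 1.97 to 0.112 on the right.

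The median distance to the nearest start was 10840 bases (quartiles 5657 and 22901, range 1030 to 255872), and 418 peaks (58.2%) lay upstream of it. That start belonged to a protein-coding gene for 266 peaks (37.0%), a lncRNA gene for 212 (29.5%) and a processed pseudogene for 116 (16.2%). The median distance to the nearest protein-coding start was 27571 bases, with 384 peaks (53.5%) upstream. The rule leaves out gene bodies, which extend downstream of starts. Shares upstream and by gene type were not counted over the admitted bases, so they stand without a background. The 718 peaks pointed to 613 protein-coding genes as nearest, of which 120 (19.6%) also had a peak at a start, against 15.7% of all 20136 protein-coding genes. Another peak of any class lay within 50 kb of 349 intergenic peaks (48.6%), and within 1000 bases of 32, counts not made for other sets of peaks. The 5 peaks farthest from any start or end had a −log10 q of 2.09 or less. They lay 255872 bases from the start of RNA5SP73 (chromosome 1, 189379390 to 189379637, −log10 q 1.21), 165027 from RNA5SP199 on the side of SGCD, a muscle membrane gene (chromosome 5, 155107286 to 155107553, 1.11), and 159660 from a lncRNA gene near ST8SIA4 (chromosome 5, 100398639 to 100398876, 1.14). The remaining pair lay near KCNC2, a potassium channel gene (chromosome 12, 75268089 to 75268314, 2.09), and PSAT1, a serine synthesis gene (chromosome 9, 81070001 to 81070373, 0.844).

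Intergenic peaks were unevenly spread over chromosomes, much as intronic peaks were. They were found on 23 of the 24 chromosomes. The gene-dense chromosome 19 had 4.46 per admitted Mb (42 peaks, 95% interval 3.22 to 6.03), chromosome 17 had 2.75 (48 peaks, 2.02 to 3.64) and chromosome 20 had 1.95 (36 peaks, 1.36 to 2.69). At the low end, chromosome 13 had 0.0954 (4 peaks, 0.0260 to 0.244), chromosome X 0.141 (10 peaks), chromosome 4 0.207 (15 peaks) and chromosome 18 0.254 (7 peaks). The highest was 46.8-fold above the lowest. Across these 23 chromosomes, the density of intergenic peaks and that of intronic peaks per Mb of intron had a Spearman rho of 0.90, a description of points that share the same pooled libraries.

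**Figure D3:**
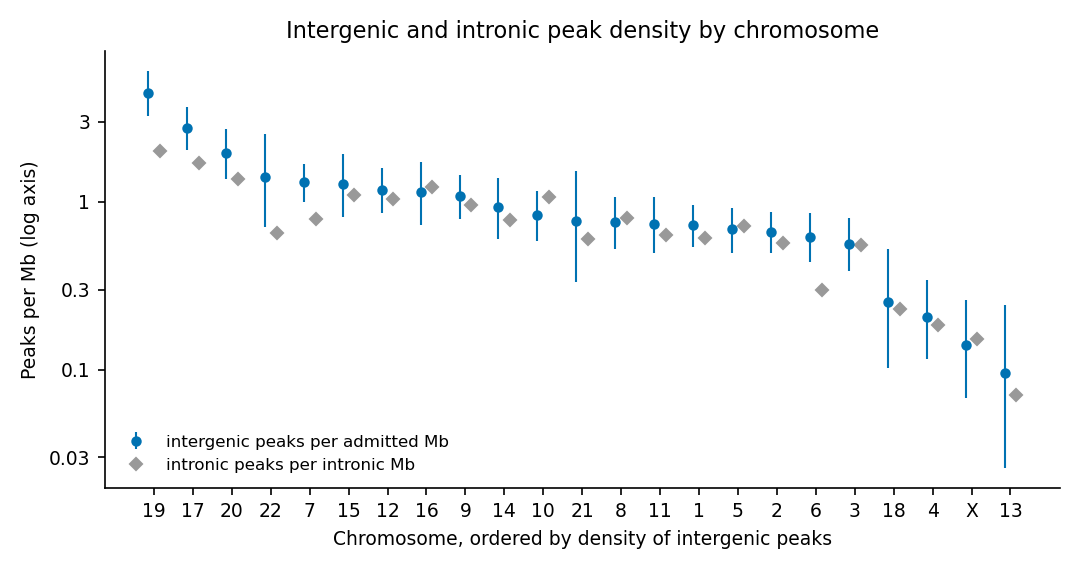
Peaks per Mb on a log axis (vertical axis) for 23 chromosomes ordered by density (horizontal axis), with intergenic peaks per admitted Mb as circles with 95% exact Poisson intervals and intronic peaks per intronic Mb as diamonds. Chromosome 19 stands highest at 4.46 and chromosome 13 lowest at 0.0954, and the diamonds follow the circles.

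Of the 718 peaks, 168 (23.4%, 95% interval 20.4 to 26.6) stood in 73 clusters, chained where neighbouring intergenic midpoints lay 50 kb or less apart. The share in clusters was not counted for other sets of peaks, so it stands without a background. There were 56 clusters of 2, 13 of 3, 3 of 4 and 1 of 5. The largest lay on chromosome 6 between 27639577 and 27740567, with H2BC13, a histone H2B gene of the replication-dependent cluster, as the nearest protein-coding gene. Its 5 peaks had a −log10 q of 1.84, 0.685, 3.38, 0.903 and 2.04 in order along the chromosome. A cluster of 4 lay just before it (27520752 to 27569986, nearest protein-coding gene ZNF184) with values of 1.75, 1.26, 0.796 and 1.57. Between ZNF184 and H2BC13, the RefSeq gene table (GRCh38.p14, used for gene order only) lists 33 tRNA genes, so these 9 peaks share their interval with a tRNA gene cluster.

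The other 2 clusters of 4 lay elsewhere. On chromosome 6 between 12332202 and 12366507, 4 peaks stood 41843 to 75789 bases from EDN1, which encodes the vasoconstrictor endothelin-1, with values of 1.68, 2.96, 2.32 and 1.86. On chromosome 14 between 77371352 and 77423316, 4 peaks had values of 2.28, 0.763, 1.31 and 2.47, with LRRC74A as the nearest protein-coding gene of 3 and IRF2BPL of the last. The genes that most often were the nearest protein-coding one were H2BC13 and SIK1, a salt-inducible kinase gene, with 5 peaks each, and EDN1 and ZNF184 with 4 each.

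In base composition, intergenic peaks stood between promoters and the sequence around them. The central 200 bases had a mean GC content of 50.9% ± 12.3 (SD over 718 peaks), against 47.7% ± 11.5 in intronic peaks, 59.4% ± 13.02 in all peaks and 39.9% ± 8.87 in a grid of 18624 windows placed every 50 kb over the admitted bases. In flanks 1000 bases to each side of the same midpoints it was 46.1% ± 10.6. A window was called CpG-island-like if its GC content was 55% or more and its ratio of observed to expected CpG was 0.6 or more. This held for 112 intergenic peaks (15.6%, 95% interval 13.1 to 18.4), against 10.2% of intronic peaks, 50.4% of all peaks, 74.3% of peaks at annotated starts, 3.27% of flanks and 0.693% of grid windows. Intergenic peaks thus held this class far more often than the intergenic sequence around them and far less often than peaks at starts. The CpG-island-like share was 17.7% at 1 to 5 kb and 18.5% at 5 to 20 kb from the nearest start, 9.74% at 20 to 100 kb and 0 of 13 at 100 to 500 kb, a count that allows a share of up to 23.1%. Their median −log10 q was 1.40, against 1.25 for the remaining 606, and the highest was 4.12, that of the GADD45B peak (chromosome 19, 2494413 to 2494708). The second, near C7orf25 (chromosome 7, 42896804 to 42897038), had 3.49.

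Peaks made mostly of repeated sequence were rare, although some repeated sequence was common. Any repeated word was held by 185 intergenic peaks (25.8%), against 22.03% of intronic peaks, 63.7% of intergenic peaks near long gaps, 17.3% of all peaks and 39.5% of grid windows. Words were taken from each whole peak but from only 200 bases in each grid window. A longer stretch has more words that can be repeated, so these shares compare unlike lengths. In 6 intergenic peaks (0.836%, 95% interval 0.384 to 1.81), 50% or more of the words of 31 bases occurred more than once in hg19, against 1.73% of intronic peaks, 22.96% of intergenic peaks near long gaps, 1.11% of all peaks and 13.4% of grid windows. The 2 of these with the highest values lay near PGAM1P2 (chromosome 9, 35946415 to 35946681, 1.88) and in the EDN1 cluster (chromosome 6, 12366258 to 12366507, 1.86). None of the 718 peaks held a word of mitochondrial DNA, and none had 50% or more of its words in annotated exons elsewhere. The highest share in exons was 41.4%. Of the LINC00854 peak, 19.2% of the words were repeated.

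AP-1 letters were as common in intergenic peaks as in intronic ones, within counting error, and commoner than in the sequence around them. TGANTCA, searched on both strands of the central 200 bases, occurred in 117 intergenic peaks (16.3%, 95% interval 13.8 to 19.2), against 17.97% of intronic peaks (15.7 to 20.5), 10.4% of intergenic peaks near long gaps, 7.77% of all peaks, 3.30% of peaks at annotated starts, 6.69% of the flanks and 6.31% of grid windows (5.97 to 6.67). The intervals of intergenic and intronic peaks overlap, and both lie above that of the grid. At a matched base composition the share of intergenic peaks was above that of the grid in each class: 15.3% against 6.61% of grid windows at a GC content under 45%, 22.7% against 5.94% from 45% to 55%, and 12.5% against 3.91% at 55% or more. The share was 14.6% at 1 to 5 kb from the nearest start, 15.1% at 5 to 20 kb and 21.03% at 20 to 100 kb, with 0 of 13 farther away. Peaks with AP-1 letters had a median −log10 q of 1.35, against 1.26 for those without, and only 4 peaks were both AP-1 positive and CpG-island-like.

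**Figure D4:**
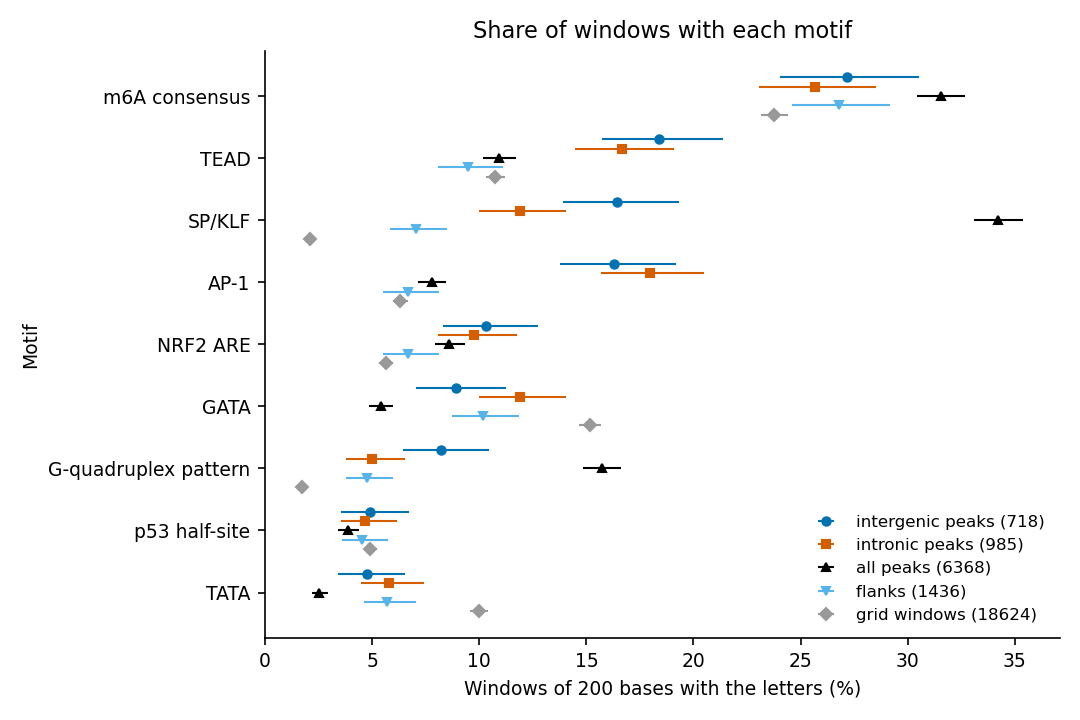
Share of windows of 200 bases with each motif in percent (horizontal axis) for 9 motifs (vertical axis) in intergenic peaks, intronic peaks, all peaks, flanks 1000 bases from intergenic midpoints and grid windows, with 95% Wilson intervals. For AP-1 and TEAD, intergenic peaks (16.3% and 18.4%) lie beside intronic peaks and above the other sets drawn, and for SP/KLF they lie between the grid and all peaks.

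AP-1 matches were denser around the peak centres, over a broad stretch. Counted over 100 bases of sequence per peak, there were 62 within 50 bases of the midpoints, 72 at 50 to 100 bases, 63 at 100 to 150 bases and 47 at 150 to 200 bases, against 29 for the same length at 400 to 500 bases. Most of the 422 matches within 500 bases lay more than 100 bases from a midpoint. The highest count in a stretch of 50 bases was 46, between 100 and 50 bases to the left of the midpoint, and the lowest was 7.

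**Figure D5:**
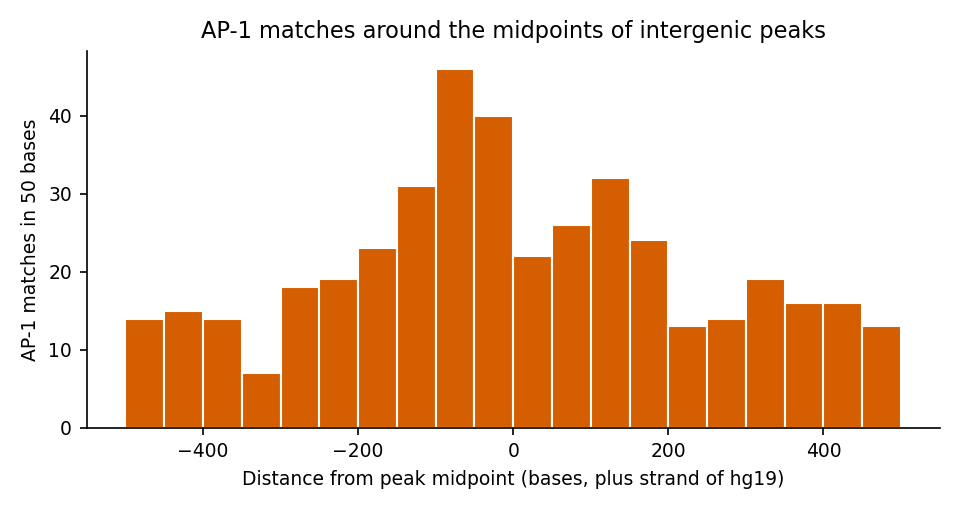
Number of AP-1 matches on either strand in stretches of 50 bases (vertical axis) by distance from the midpoint of the 718 intergenic peaks in bases (horizontal axis). Counts reach 46 near the midpoint and are between 13 and 16 at 400 to 500 bases on both sides.

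Other motifs fell into groups. TEAD letters, GGAATG, occurred in 18.4% of intergenic peaks (132), against 16.7% of intronic peaks, 31.9% of the 135 intergenic peaks near long gaps, 10.9% of all peaks, 9.47% of flanks and 10.7% of grid windows, and 33 peaks held AP-1 and TEAD letters together. The antioxidant response element of NRF2, TGACNNNGC, occurred in 10.3% (74 peaks), against 9.75% of intronic peaks, 8.61% of all peaks, 6.69% of flanks and 5.65% of grid windows. By base composition, the share was 5.62% against 4.71% of grid windows at a GC content under 45%, and 10.1% against 7.95% from 45% to 55%. In both of these classes the intervals overlap. At 55% or more it was 14.8% against 8.22%, and the intervals lie apart. The NRF2 element can share letters with an AP-1 match, and 24 of the 74 peaks also held one. C/EBP letters, TTGCNCAA, occurred in 3.06%, against 4.37% of intronic peaks and 2.42% of the grid, and FOX letters, TGTTTAC, in 3.48%, against 5.08% and 3.34%. AGATAA, the letters of GATA factors, occurred in 8.91%, against 11.9% of intronic peaks, 10.2% of flanks and 15.2% of the grid. For these letters the intervals of intergenic peaks and of their flanks overlap. TGTGGTT, the letters of RUNX factors, occurred in 3.76%, against 2.74% of intronic peaks and 3.99% of the grid. The intervals of intergenic peaks and the grid overlap for C/EBP, FOX and RUNX.

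Of the motifs of promoters, SP/KLF, ETS and G-quadruplex shares lay below those of the whole peak set and above those of the grid. They also lay above those of the flanks, which were 7.03%, 0.766% and 4.74%. For the E-box and TATA letters, the intervals of the peaks and of their own flanks overlap. SP/KLF letters, GGGCGG, occurred in 118 intergenic peaks (16.4%, 95% interval 13.9 to 19.3), against 11.9% of intronic peaks, 47.1% of peaks at starts, 34.2% of all peaks and 2.08% of the grid. ETS letters, CCGGAAG, occurred in 2.79%, against 1.32% of intronic peaks, 6.08% of all peaks and 0.360% of the grid. The E-box CACGTG occurred in 3.06%, against 4.46% of all peaks, 2.79% of flanks and 1.58% of the grid. Its intervals in intergenic peaks and in all peaks overlap as well. The CRE TGACGTCA occurred in 5 peaks (0.696%), against 0.722% of all peaks and 0.0322% of the grid. NRF1 letters, GCGCATGC, occurred in 2 (0.279%), against 0.518% and 0.322%. YY1 letters, AAGATGGC, occurred in 2 peaks (0.279%), against 1.22% and 0.854%. The TATA letters TATAAAA occurred in 4.74%, against 2.53% of all peaks, 5.71% of flanks and 9.99% of the grid. The G-quadruplex pattern, 4 runs of G on either strand, was found in 59 (8.22%), against 4.97% of intronic peaks, 15.7% of all peaks and 1.71% of the grid.

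The m6A consensus as DNA letters, GGACT, searched because YTHDC1 reads m6A, occurred in 195 intergenic peaks (27.2%, 95% interval 24.03 to 30.5), against 25.7% of intronic peaks, 31.5% of all peaks, 26.8% of flanks and 23.8% of the grid. The intervals of the peaks and of their own flanks overlap. The p53 half-site occurred in 35 peaks (4.87%, 3.53 to 6.70), against 4.67% of intronic peaks, 3.86% of all peaks and 4.90% of the grid, so its share was that of the grid within counting error. The CTCF core occurred in 8 peaks (1.11%, 0.566 to 2.18), against 1.32% of intronic peaks, 0.785% of all peaks, 0.0696% of flanks and 0.0644% of the grid. The highest values among these 8 peaks were 2.07 (chromosome 19, 35464036 to 35464508, near ZNF792) and 1.83 (chromosome 5, 137785650 to 137785944). AP-1, TEAD, SP/KLF and CTCF letters and the CpG-island-like class together left 366 intergenic peaks (51.0%) with none of them, against 54.7% of intronic peaks and 81.3% of grid windows.

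The B box letters of tRNA genes stood in few peaks. B box letters occurred in the central windows of 4 intergenic peaks (0.557%, 95% interval 0.217 to 1.42), against 0.267% of all peaks, 0.209% of flanks and 0.0644% of the grid. The interval of intergenic peaks overlaps those of all peaks and of flanks. In intronic peaks the count was 0 of 985 (95% interval up to 0.388%). When the whole peak was searched, 6 intergenic peaks held B box letters. None of these peaks also held the A box letters TGGCNNAGT, which allow only T at the last position. The stretches printed above for PLLP and PER1 hold TGGCNNAGC before the B box, once each, and that for DDIT4 does not. In the PLLP stretch these letters lie beyond the end of the peak. This second form, searched after the sequences were seen, occurred in 29 central windows (4.04%), against 1.84% of the grid. The first form occurred in 22 windows (3.06%), against 2.15% of the grid, and these 2 intervals overlap. Of the 6, the PLLP peak (−log10 q 17.7) and the PER1 peak (7.49) were among the 10 strongest intergenic peaks. The RefSeq table lists the leucine tRNA genes TRL-CAG2-1 and TRL-CAG2-2 between PLLP and CCL22, and the tRNA genes TRR-TCT2-1, TRG-GCC2-6, TRS-CGA1-1 and TRT-AGT5-1 between HES7 and PER1. A further 3, near DDIT4, a stress-induced inhibitor of mTORC1 (chromosome 10, 74057088 to 74057727, 2.47), ZNF692 (chromosome 1, 249168166 to 249168674, 1.91) and RD3 (chromosome 1, 211688284 to 211688704, 0.996), had no tRNA gene between their flanking genes in the table.

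In all, 43 of the 718 intergenic peaks lay between neighbouring genes that enclose at least 1 of the 465 tRNA genes of the table, which gives the order of genes and not a distance. The same count was not made for other sets of peaks, so it stands without a background. The MDM4 peak was one of them, with the lysine tRNA genes TRK-TTT3-1 and TRK-TTT3-2 between PIK3C2B and MDM4, and so was a peak near MRTFB (chromosome 16, 14379869 to 14380320, 6.403) with TRT-CGT2-1. The B box letters searched are those of a single form, and tRNA genes with other letters there were not counted.

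Which genes lie near intergenic peaks was asked for 8 lists. A peak within 100 kb of a start is a statement of distance, not of regulation, and 1612 of all 20136 protein-coding genes (8.01%) had one. Among NRF2 targets, which A549 cells express strongly because KEAP1 is mutated in this line, 7 of 20 genes had an intergenic peak: SRXN1, SLC7A11, PGD, TALDO1, AKR1B10, FTH1 and ABCC2. AKR1B10, an aldo-keto reductase gene, had 4, with −log10 q of 2.91, 2.20, 1.32 and 0.958, the nearest at 5818 bases. SLC7A11, the cystine transporter gene, had 1 at 14146 bases (chromosome 4, 139177483 to 139177815, 0.743), PGD, of the pentose phosphate pathway, 1 at 3537 bases (1.35), and TALDO1, of the same pathway, 1 at 4536 bases (1.02). ABCC2, an efflux pump gene, had 2 about 10 kb away (0.894 and 1.48), SRXN1, a peroxiredoxin repair enzyme gene, 1 at 86005 bases (1.58), and FTH1, the ferritin heavy chain gene, 1 at 58157 bases (1.18). NRF2 element letters stood in the central 200 bases of 1 of these 11 peaks, against 10.3% of all intergenic peaks, and AP-1 letters in 0 of 11 (which allows up to 27.3%), against 16.3%, so too few peaks are at hand to tell either share from that of all intergenic peaks.

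Among lung lineage and epithelial genes, 6 of 20 had a peak: CEBPA, which encodes a C/EBP factor, at 9406 bases (0.712), the keratin genes KRT7, KRT8, KRT18 and KRT19, and MUC1, a mucin gene, at 62945 bases (0.998). KRT8 and KRT18 are neighbours and shared both of their peaks (chromosome 12, 53265055 to 53265382, 1.37, and 53365626 to 53365978, 0.949), so they do not count separately. Among AP-1 and immediate early genes, 4 of 20 had one. EGR1 had peaks at 15371 bases (1.83, with the CTCF core shown above) and at 38073 bases (1.89). NR4A2, an orphan nuclear receptor gene, had one at 58636 bases on chromosome 2 (157257322 to 157257669, 5.52), and IER5 one at 23989 bases (2.41) with AP-1 letters. NR4A1 had one at 91185 bases (0.925), which was also the KRT7 peak.

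The remaining lists had few. Integrin genes had 2 of 12, ITGA3 with 2 peaks about 31 kb away (1.05 and 2.84) and ITGAV with 1 at 27308 bases (0.858). Among DNA damage response genes, BRCA1 had the 2 peaks near LINC00854. Among p53 targets, 1 of 24 had any, PHLDA3, an inhibitor of AKT, with 3 peaks at 3494, 11301 and 30858 bases (0.983, 0.886 and 1.02), and among m6A machinery genes 1 of 20, METTL16, an RNA methyltransferase, at 53185 bases (2.12). The MYC family had 0 of 10. The lists are short and were not tested.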

How the data were processed

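The labels describe 3 samples of 1 group, YTHDC1 ChIP-seq in A549 cells. The authors aligned the reads to hg19 and ran MACS2 in broad mode on the 3 pooled replicates (q threshold 0.1, broad threshold 0.25). The study's methods and the submitters' processing notes name different aligners, Bowtie2 and BWA (not settled here). The deposited file holds 1 peak set with positions and a value that is read here as −log10 q, since its minimum of 0.610 lies just above 0.602, the −log10 of the broad threshold. Peak names point to a merging step that no source describes.

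Genes and transcripts came from GENCODE release 44 mapped to hg19 and sequences from the same assembly, and coordinates count from 1. Gene order and tRNA names came from RefSeq (GRCh38.p14), with no coordinates converted. Intronic peaks away from starts, intergenic peaks within 5 Mb of long gaps, peaks overlapping 200 bases around a start, all peaks, a fixed grid of 200-base windows every 50 kb over the admitted bases and flanks 1000 bases from the midpoints served for comparison. Intronic peaks were not limited by their distance from long gaps. Letters were searched on both strands of the central 200 bases. CTCF core, p53 half-site and G-quadruplex were searched with degenerate patterns. Shares carry 95% Wilson intervals and densities exact Poisson intervals. Where a count of 0 is said to allow a share, that share is 3 over the number of peaks and not a Wilson bound. No test between sets was run, because the replicates were pooled.

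Named peaks are the 10 with the highest −log10 q, the 10 widest, the 5 farthest from any start or end, the largest clusters (4, because of a tie), the 2 highest of each sequence class and those beside the limits of the rule. Named genes are the nearest ones and list genes with a peak within 100 kb. The other peaks named by interval with tRNA genes, and the genes with most peaks, were chosen after their values were seen. The peaks examined and all lists were chosen with earlier results of these data known. Results that need items withheld for evaluations are left out. The alternatives tried changed the distance limits, the value threshold, the window, the word length, the gap of a cluster and the kind of start. The word counting, motif search and base composition code was tested on simulated data. Scripts ran under Python 3.11.15 (numpy 2.4.6, scipy 1.17.1, pandas 2.3.3, matplotlib 3.10.9, numba 0.67.0).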

Additional observations from a re-analysis of the deposited data

How the results depend on the processing

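Of 45 alternatives over 10 results, 31 kept the value inside its 95% interval (for counts of peaks, within 1.5 times) and 14 did not. The number of intergenic peaks was 477 when 5000 bases from every start and end were asked for, 351 at a q-value under 0.05 and 154 at a −log10 q of 2 or more. The mean GC content was 49.6% at 5000 bases and 52.3% at a q-value under 0.05. The AP-1 share was 20.8% at a −log10 q of 2 or more and 23.7% when the whole peak was searched, where wider peaks give more letters to match. The share made mostly of repeated sequence was 0% at a −log10 q of 2 or more (0 of 154, which allows up to 1.95%), 0% when 9 in 10 words had to be repeated and 5.29% with words of 21 bases. The share in clusters was 12.3% with a gap of 10 kb and 35.4% with 200 kb. The density within 5 kb of a start was 0.6998 per Mb at a q-value under 0.05 and 1.97 per Mb around protein-coding starts. Leaving out chromosomes 17 and 19, an alternative added after seeing the data, gave an AP-1 share of 16.4% and a CpG-island-like share of 14.6%. Asking that the whole peak lie outside gene bodies could change nothing, since the rule fixes that all 718 do. The alternatives of this kind, all counted among the 31, therefore say nothing about robustness. No paired analysis was possible because the 3 replicates form 1 group and were pooled before peak calling, and for the same reason no replicate could be left out. Depth, input signal and the spread between samples cannot be assessed from this peak set.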
